A study of Homo sapiens with 4 samples.

Results

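The RNAs described are 10 long noncoding RNAs named for their links to cancer: UCA1, CCAT1, PVT1, MALAT1, NEAT1, H19, MEG3, HOTAIR, GAS5 and DANCR. They were found by gene name among the 58336 genes of the deposited count table, of which 14700 are long noncoding. Of the 10, 9 have a row, 8 had enough counts to be tested among 18278 tested genes (2726 of them long noncoding), and MEG3 is at 0 counts in every library. CCAT1 has no row of that name and is not analysed here. RNA was sequenced from AGS, an epithelial gastric adenocarcinoma line, and from HGC-27, an undifferentiated gastric carcinoma line, both labelled wild type. Each line gave 1 control library, labelled nc, and 1 library after 1 day in 10 nM estradiol, so there were 4 libraries in all. Each group is therefore 1 library of 1 established line, and nothing says that libraries came from separate cultures. No combination of line and condition has a repeated library, so no spread between repeats was measured. A p-value rests on how far the estradiol difference varies between the lines, which the fit pooled over genes.

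Long noncoding RNAs are transcribed and spliced much like messenger RNAs but act without being translated. MALAT1 and NEAT1 stay in the nucleus, in speckles and paraspeckles, and a triple helix at the 3′ end protects MALAT1 and the long form of NEAT1 in place of a poly(A) tail. H19 and MEG3 come from imprinted loci, HOTAIR lies between HOX genes and binds chromatin regulators, PVT1 and CCAT1 flank the MYC oncogene, and GAS5 and DANCR carry small nucleolar RNAs (snoRNAs) in their introns. UCA1 was described in urothelial cancer and is raised in many gastric tumours.

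Between 24597379 and 28734374 counts were assigned to genes per library. The long noncoding genes held 0.969% to 1.28% of them, and the members held 13% to 14.9% of these long noncoding counts. The line labels were checked against cell type markers, as CPM (counts scaled to a common library size) summed over each list. The 9 epithelial markers summed to 6177 and 6507 CPM in AGS but only to 72.1 and 76.1 in HGC-27. The 8 mesenchymal markers summed to 5.04 and 5.57 CPM in AGS and to 2121 and 2142 in HGC-27, and the 7 fibroblast markers to 14.6 and 12.9 against 1920 and 1969. EPCAM, which marks epithelial cells, had 13601 and 13659 counts in the AGS libraries and 10 and 8 in those of HGC-27. Leukocyte markers summed to at most 5.2 CPM and endothelial markers to at most 0.691. The differences between lines described for the long noncoding RNAs move with these marker sums, whose part in them was not tested.

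Some sequences are shown first to make plain what kind of RNA the members are. The first bases of GAS5-219, taken from GENCODE 29, are shown because GAS5 led the members in HGC-27. GAS5-219 opens with a pyrimidine run, in capitals, of the kind found at the start of ribosomal protein and snoRNA host transcripts, and 6 of 29 GAS5 transcripts begin with the same 20 bases.

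GAS5-219: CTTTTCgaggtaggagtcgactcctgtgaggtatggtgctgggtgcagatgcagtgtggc

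The 3′ stretches of MALAT1-202 and NEAT1-202 show what sets these RNAs apart from messenger RNAs. Capitals mark the U-rich motifs and the A-rich tract that fold into the triple helix, written as DNA. In MALAT1 both U-rich motifs lie upstream of the tract, in a stretch of 88 bases. In NEAT1 the search found 1 of them in a stretch of 51 bases that runs to the last base of the transcript.

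MALAT1-202: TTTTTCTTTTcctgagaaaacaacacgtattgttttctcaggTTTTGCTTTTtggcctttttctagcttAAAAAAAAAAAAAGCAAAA

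NEAT1-202: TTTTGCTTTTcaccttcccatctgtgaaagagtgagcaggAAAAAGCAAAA

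The annotated MALAT1-202 goes on for 353 bases past its tract. The tract ends at position 65506116 of chromosome 11 (GRCh38), and the tRNA-like small RNA that is cleaved from the MALAT1 precursor, listed as RF01684, begins at the next base and covers 57 bases, 65506117 to 65506173. That small RNA had 0 counts in all 4 libraries, while MALAT1 itself had 7388 to 9734. Its row lies wholly inside the MALAT1 gene on the same strand, so reads there overlap both genes, and how such reads were counted is not known from the sources at hand. The other small rows nested in MALAT1 and NEAT1 on the same strand, RF01871, RF01955, RF01956, RF01957 and MIR612, were at 0 as well. A 0 in such a row sets no limit on the small RNA. Of 18 rows of other RNAs known to lack a poly(A) tail, 11 to 14 were at 0 in each library and the list summed to between 10.7 and 21.2 CPM. Of these rows 3 were tested, of which 2 were higher in HGC-27 and 1 did not pass, with a median of -0.74 (log2, AGS minus HGC-27), among them the signal recognition particle RNA RN7SL2 at -0.54 ± 0.12. Among all tested genes, 41.5% were called higher in HGC-27 and 35.7% higher in AGS. The sources used here do not give whether the library method selected polyadenylated RNA or kept short fragments.

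H19 contains a microRNA hairpin, and its products are shown with their seed (bases 2 to 8) in capitals, from RefSeq (GRCh38.p14). They lie on the minus strand of chromosome 11 at chr11:1996800-1996822 for the 5p arm and chr11:1996768-1996787 for the 3p arm. The 2 arms do not share a seed.

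hsa-miR-675-5p: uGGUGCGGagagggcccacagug

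hsa-miR-675-3p: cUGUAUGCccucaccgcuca

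The row of the hairpin gene, MIR675, is nested in H19 in the same way and was at 0 counts in all 4 libraries, so the H19 values below describe the host RNA and say nothing about its microRNA.

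Levels can be compared between genes only per length, so CPM were divided by the gene length in the deposited table. For every tested member that length is all exonic bases of its annotated transcripts together. It is 4152 bases over 36 transcripts for UCA1 and 3631 bases over 29 for GAS5. The order of levels therefore depends on which transcripts the reads came from, which gene counts cannot show. In AGS, UCA1 had the highest level of the members, at 51.4 CPM per kilobase in control and 58.1 with estradiol. GAS5 followed at 41.6 and 42.8, MALAT1 at 32.2 and 33.7, and NEAT1 at 30.1 and 31.7. DANCR stood at 16.9 and 15.6, H19 at 8.57 and 7.37, PVT1 at 1.9 and 2.13, and HOTAIR at 0.281 and 0.222. The order was the same in both AGS libraries.

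In HGC-27 the order was different. GAS5 led at 83.7 CPM per kilobase in control and 79.7 with estradiol, and DANCR was next at 70.2 and 67.7. MALAT1 stood at 38.1 and 41.9 and NEAT1 at 28.8 and 32.6. PVT1 reached 14 and 13.3, HOTAIR 11.6 and 11.1, and H19 1.85 and 2.43, while UCA1 was at 0. With 1 library per condition, the spread behind neighbouring places in either order is known only from the other library of the line.

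**Figure D1:**
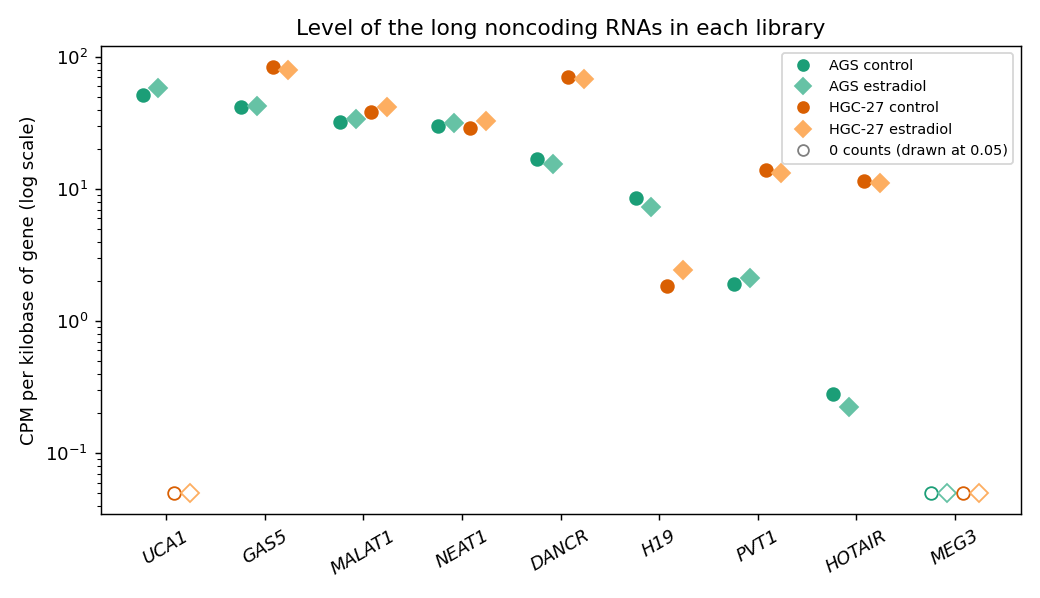
Level of each long noncoding RNA, as CPM per kilobase of gene on a log scale, in the 4 libraries (circles control, diamonds estradiol; open symbols are 0 counts, drawn at 0.05). UCA1 stood at 51.4 and 58.1 in AGS and at 0 in HGC-27, whereas MALAT1 and NEAT1 lay between 28.8 and 41.9 in every library.

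Several of these RNAs were among the most abundant long noncoding RNAs measured. Per kilobase, UCA1 ranked 2 of the 2726 tested long noncoding genes in both AGS libraries, at 111 and 124 times their median level. GAS5 ranked 3 in AGS and 2 in HGC-27, and DANCR ranked 3 in HGC-27 but 19 and 21 in AGS. These ranks rest on the gene lengths of the deposited table, with the same limit. By plain counts NEAT1 was the first or second of all long noncoding genes in every library. Plain counts are not divided by length, and the annotated length of NEAT1 is 22767 bases. The short NEAT1-203 transcript is 3524 bases, 6.45 times shorter than the longest, so a level per kilobase of the gene depends on which form the reads came from, which gene counts cannot show. NEAT1 and MALAT1 together took 8.2% to 10.2% of all long noncoding counts. Without division by length, NEAT1 and MALAT1 came first in both lines. UCA1 then followed in AGS, at 213 and 241 CPM, ahead of GAS5 at 151 and 155. In HGC-27, GAS5 followed at 304 and 289 CPM, ahead of DANCR at 160 and 155.

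The first comparison asked how the lines differ. It used edgeR's quasi-likelihood test on all 18278 genes in a model of line and treatment, with an adjusted p under 0.05 as a call and n = 2 libraries per line, which differ in treatment. Of the 8 tested members, 2 were higher in AGS (UCA1 and H19), 5 were higher in HGC-27 (HOTAIR, PVT1, DANCR, GAS5 and MALAT1) and NEAT1 passed in neither direction. The background is high: 77.2% of all tested genes were called between the lines, 35.7% higher in AGS and 41.5% higher in HGC-27. Of the long noncoding genes, 63.4% were called, 21.1% higher in AGS and 42.2% higher in HGC-27. The members' share is therefore described by the sizes below and not by its count. The share of all genes without overlap between the lines was not counted, so a lack of overlap marks no member out. The median difference of the members was -0.62 (log2, AGS minus HGC-27), beside -0.56 over all tested long noncoding genes and -0.10 over all tested genes. The medians of the members and of the 8 related lists are the same with genes at 0 in one line set at the bound that 3 counts give.

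UCA1, the urothelial cancer RNA, had 5541 counts in AGS control and 6665 in AGS estradiol, and 0 in both HGC-27 libraries. The lines did not overlap, and nothing was counted for UCA1 in HGC-27. Set against the 3 counts that a 0 allows in one library, UCA1 was at least 2056-fold higher in AGS in the control libraries. In the estradiol libraries it was at least 2009-fold higher. The adjusted p of 7.71e-237 (edgeR) belongs to the fitted difference and not to these bounds. UCA1 had enough counts to be tested through AGS alone, so this call adds nothing to the counts. Of the 101 tested long noncoding genes at 0 in both HGC-27 libraries, UCA1 was highest in AGS, at a mean of 227 CPM. IGFL2-AS1 and FLG-AS1 came next at 53.4 and 27.9. All 101 were tested through their AGS counts alone.

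UCA1 lies on chromosome 19 from 15828206 to 15836326, on the plus strand, between olfactory receptor genes and cytochrome P450 genes of the CYP4F family. The neighbouring receptor genes OR10H1 and OR10H5 were at 0 in all 4 libraries. CYP4F2 had 3 to 9 counts per library. CYP4F11, an enzyme of fatty acid and vitamin oxidation, had 1 and 0 counts in the AGS libraries and 215 and 216 in those of HGC-27. CYP4F11 thus differed the opposite way to UCA1. Of the exonic bases of UCA1, 13.6% overlap another annotated gene, mainly LINC01764 on the other strand, which had at most 1 count in a library.

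HOTAIR, the antisense RNA of the HOXC cluster, had 19 and 16 counts in the AGS libraries and 874 and 721 in those of HGC-27, in control and estradiol. The groups were far apart, and the fitted difference was -5.49 ± 0.19 (log2, SE), 44.9-fold higher in HGC-27 (adjusted p = 4.82e-99, edgeR). It lies on chromosome 12 from 53962308 to 53974956 on the minus strand. Its homeobox neighbours, which set positional identity along the body axis, were higher in HGC-27 as well. HOXC10 had 4 and 6 counts in the AGS libraries and 1213 and 1090 in those of HGC-27. HOXC11, whose gene body overlaps HOTAIR on the other strand, had 1 and 0 against 326 and 311, and HOXC12 had 0 in AGS and 15 and 12 in HGC-27. HOXC13, the last gene of the cluster, differed less, with 120 and 149 counts in the AGS libraries and 383 and 348 in those of HGC-27 (log2 difference -1.44 ± 0.16, adjusted p = 7.87e-17). HOTAIR shares no exonic base with HOXC11 in the annotation, but the sources used here do not give whether counting used strand.

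PVT1, which lies next to MYC on chromosome 8 from 127794533 to 128101253, had 271 and 323 counts in the AGS libraries and 2225 and 1828 in those of HGC-27. The difference was -2.76 ± 0.09 (log2, SE), 6.78-fold higher in HGC-27 (adjusted p = 2.71e-108, edgeR). MYC, the transcription factor gene 53099 bases upstream, had 4391 and 4649 counts in the AGS libraries and 7528 and 6258 in those of HGC-27, a difference of -0.60 ± 0.05 and 1.51-fold. Both were higher in HGC-27, PVT1 by more. There were 16.2 and 14.4 MYC counts per PVT1 count in AGS and 3.38 and 3.42 in HGC-27, and this ratio was alike between the libraries of a line.

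CCAT1, the colon cancer RNA of the same region, has no row, but RefSeq (GRCh38.p14) places it at 127207382 to 127219268 of chromosome 8, inside the span of the deposited gene CASC19 (127072694 to 127227541). Of the 22208 exonic bases of CASC19, 2795, or 12.6%, lie within the CCAT1 interval, so reads from these bases may be counted for CASC19. CASC19 had 3186 and 3780 counts in the AGS libraries and 27 and 20 in those of HGC-27 (log2 difference 7.20 ± 0.12, 147-fold higher in AGS). CASC8, a further long noncoding RNA of the region, had 39 and 48 counts in the AGS libraries and 0 and 1 in those of HGC-27. LINC00824, on the far side of PVT1, had 0 in AGS and 2169 and 1844 in HGC-27. PCAT1, on the same side of MYC as CASC19, had 80 and 37 counts in the AGS libraries and 80 and 69 in those of HGC-27, and its difference of -0.38 ± 0.31 did not pass (adjusted p = 0.253). CASC8, PCAT1 and LINC00824 were chosen after their values were seen.

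**Figure D2:**
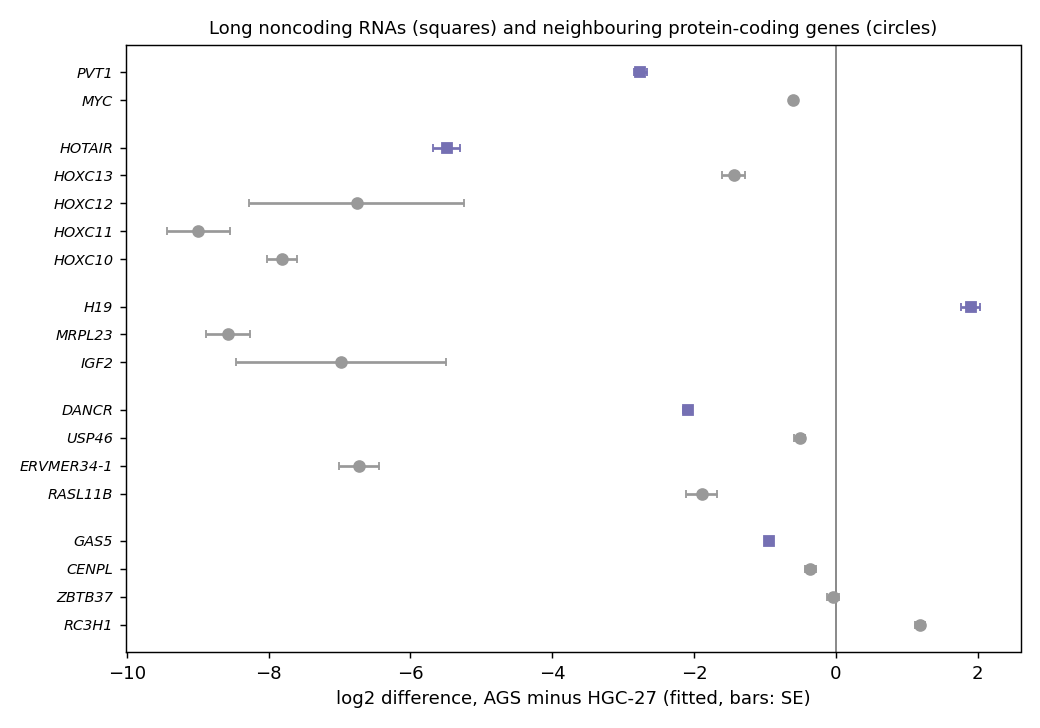
Fitted line difference (log2, AGS minus HGC-27, bars SE) of 5 long noncoding RNAs (squares) and of neighbouring protein-coding genes that were tested (circles). PVT1 at -2.76 lies further from 0 than MYC at -0.60, and HOTAIR lies with its HOXC neighbours on the HGC-27 side. H19 at 1.90 lies on the other side from MRPL23 and the tested row of IGF2.

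H19, the maternally expressed RNA of the imprinted locus on chromosome 11 (1995176 to 2001470, minus strand), had 645 and 590 counts in the AGS libraries and 155 and 176 in those of HGC-27. All AGS values were above those of HGC-27, and the difference was 1.90 ± 0.13 (log2, SE), 3.74-fold (adjusted p = 1.24e-36, edgeR). IGF2, the growth factor gene that shares its enhancers with H19 and is expressed from the other parental allele, went the other way in its tested row. That row had very low counts, with 0 in AGS and 20 and 12 in HGC-27. A further IGF2 row, which overlaps it on the same strand, was at 0 in all 4 libraries. How reads that overlap both rows were counted is not known. MRPL23, a mitochondrial ribosomal protein gene on the other side of H19, had 2 and 1 counts in the AGS libraries and 713 and 541 in those of HGC-27 (log2 difference -8.58 ± 0.31). Both tested neighbours were thus higher in HGC-27 and H19 in AGS.

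MEG3, the maternally expressed RNA of the imprinted locus on chromosome 14 (100779410 to 100861031), had 0 counts in every library. Its partners at the locus were at or near 0 too: DLK1, the paternally expressed signalling gene, had 0 in all 4 libraries, MEG8 had 0 in all 4, and RTL1 had 0 in AGS and 2 and 5 in HGC-27. BEGAIN, further away on the same side as DLK1, had 1 and 0 counts in the AGS libraries and 384 and 308 in those of HGC-27. The 0 of MEG3 means that it was not detectable at this depth, since a count of 0 allows up to 3 counts per library, or 0.104 to 0.12 CPM, from counting error alone.

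GAS5 and DANCR were both higher in HGC-27. GAS5, which accumulates in growth-arrested cells and is turned over by nonsense-mediated decay, had 3921 and 4298 counts in the AGS libraries and 8788 and 7232 in those of HGC-27. Its difference was -0.95 ± 0.05 (log2, SE), 1.94-fold (adjusted p = 3.21e-52, edgeR). DANCR, an RNA that holds back differentiation, had 1001 and 986 counts in the AGS libraries and 4640 and 3869 in those of HGC-27, a difference of -2.09 ± 0.06 and 4.25-fold (adjusted p = 1.35e-112). Neither overlapped between the lines, between which 77.2% of all tested genes were called.

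The reported protein-coding genes around GAS5 (chromosome 1, 173863900 to 173868882, minus strand) differed less or the other way. ZBTB37, a zinc finger gene that overlaps GAS5 on the other strand, had 937 to 1037 counts in the 4 libraries with a difference of -0.04 ± 0.08. CENPL, a centromere protein gene, differed by -0.36 ± 0.08, on the same side as GAS5. RC3H1, an RNA-binding ubiquitin ligase gene, differed by 1.18 ± 0.07. Around DANCR (chromosome 4, 52712404 to 52720351, plus strand) the neighbours had the same sign as DANCR: USP46 at -0.51 ± 0.08, RASL11B at -1.89 ± 0.22 and ERVMER34-1, a gene of retroviral origin, at -6.73 ± 0.28. SNORA26, the snoRNA inside DANCR, had 41, 23, 75 and 28 counts in AGS control, AGS estradiol, HGC-27 control and HGC-27 estradiol and passed neither test (adjusted p = 0.161 between lines and 0.944 for estradiol).

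The promoter window of DANCR (chr4:52712144-52712443, plus strand, RefSeq GRCh38.p14) is printed because DANCR had the largest line difference of the members with a window that could be shown. It runs from 250 bases before to 50 bases after the start. Capitals mark CCAAT on either strand, a motif chosen after the window was read.

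DANCR promoter: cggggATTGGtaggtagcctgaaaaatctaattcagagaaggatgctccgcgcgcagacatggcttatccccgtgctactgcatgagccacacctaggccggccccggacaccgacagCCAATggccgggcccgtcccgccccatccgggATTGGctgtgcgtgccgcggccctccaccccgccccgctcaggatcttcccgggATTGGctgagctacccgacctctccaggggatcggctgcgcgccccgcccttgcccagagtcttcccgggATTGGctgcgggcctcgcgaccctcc

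The window holds 5 matches, and 126 of 35116 windows, or 0.359%, hold as many, while 34.6% hold at least 1. Its GC content is 67.7%. Windows were at hand for 5 member symbols, 8 windows in all, and were searched on both strands. The full palindromic oestrogen response element is in 0.057% of all windows and in none of the 8. Its arm GGTCA, which also lies within the full element, is in 37.4% of all windows and was found in the windows of GAS5, H19 and MEG3. The hypoxia core ACGTG (21.4% of all windows, and overlapping the E-box CACGTG at 7.26%), the TEAD motif GGAATG (14%) and the AP-1 motif TGANTCA (7.71%) had no match in the 8. Such letters describe a window and do not show binding.

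MALAT1 and NEAT1, the abundant nuclear RNAs, differed least between the lines. MALAT1 (chromosome 11, 65497688 to 65506516, plus strand) had 7388 and 8223 counts in the AGS libraries and 9734 and 9246 in those of HGC-27. The level was 1.21-fold higher in HGC-27, a difference of -0.28 ± 0.05 (log2, SE) that passed the test (adjusted p = 1.68e-07, edgeR). NEAT1 (65422774 to 65445540 of the same chromosome and strand) had 17790 and 19943 counts in the AGS libraries and 18942 and 18567 in those of HGC-27. Its difference was 0.01 ± 0.05 (adjusted p = 0.847), and after scaling its lines overlapped, at 685 and 722 CPM in AGS and 655 and 743 in HGC-27. Without the HGC-27 estradiol library the NEAT1 difference was 0.11, and without the HGC-27 control library its sign turned, at -0.08. Those fits had no treatment term, so both AGS treatments were set against 1 HGC-27 library of 1 treatment. At equal treatment the NEAT1 difference was 0.06 in control and -0.04 with estradiol. There were 2.41 and 2.43 NEAT1 counts per MALAT1 count in AGS and 1.95 and 2.01 in HGC-27. Of the reported genes that flank the pair, FRMD8 was higher in AGS (0.45 ± 0.08), and LTBP3 and SLC25A45 were higher in HGC-27 (-0.58 ± 0.07 and -0.84 ± 0.17).

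The second comparison asked what 1 day of estradiol changed. None of the 8 tested members was called (0 of 8, all with adjusted p = 1), with n = 2 libraries per condition, 1 from each line, and the line as a block. The background is low: 0.153% of the 18278 tested genes were called, 21 higher (0.115%) and 7 lower (0.0383%) with estradiol, and 0 of the 2726 long noncoding genes. An unadjusted p under 0.05 was reached by 3 of the 8 (UCA1, MALAT1 and NEAT1) and by 3.24% of all tested genes. With DESeq2 it was reached by MALAT1 and NEAT1, and with limma-voom by UCA1 and NEAT1, and neither tool called a member.

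The fitted estradiol differences were small. UCA1 had 0.18 ± 0.08 (log2, SE), which rests on AGS since HGC-27 had no counts. NEAT1 had 0.13 ± 0.05 and MALAT1 0.10 ± 0.05. PVT1 stood at 0.00 ± 0.08, H19 at 0.01 ± 0.13, GAS5 at -0.02 ± 0.05, DANCR at -0.08 ± 0.06 and HOTAIR at -0.09 ± 0.15. An adjusted p of 1 does not show that these RNAs did not respond.

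Within a line there is 1 library per condition, so no test was possible, and the ratio of estradiol over control is given with a 95% exact binomial interval that covers counting error only. In AGS the intervals lay above 0 for UCA1 at 0.18 (0.13 to 0.23), NEAT1 at 0.08 (0.05 to 0.11) and MALAT1 at 0.07 (0.02 to 0.11), on the log2 scale. H19 lay below 0 at -0.22 (-0.38 to -0.05). That is 4 of 8 members away from 0, or of 7 at a mean AGS count of at least 100, which leaves out HOTAIR. Of the 10917 genes at that mean, 29.8% were away from 0, so intervals of this kind leave 0 for many genes. Intervals are narrower at high counts, such as those of UCA1, MALAT1 and NEAT1, so the shares are not a like comparison.

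In HGC-27 the intervals lay above 0 for H19 at 0.39 (0.07 to 0.72), NEAT1 at 0.18 (0.15 to 0.21) and MALAT1 at 0.14 (0.10 to 0.18), and below 0 for GAS5 at -0.07 (-0.12 to -0.03). That is 4 of 7 members, beside 25.4% of 11663 genes with a mean HGC-27 count of at least 100, again without matching for count. The ratio of all tested long noncoding genes was shifted in the same pair of libraries: its median was 0.08 in HGC-27, with 221 intervals above and 79 below 0 among 2285 genes, and 0.01 in AGS, with 172 above and 151 below among 1886. The median over all tested genes was 0.00 in each line. The part of this shift in the NEAT1 and MALAT1 ratios of HGC-27 was not tested.

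MALAT1 and NEAT1 were the members whose intervals lay on the same side of 0 in both lines, which held for 3.16% of 9867 genes measured in both. H19 was the member whose intervals lay on opposite sides, which held for 4.86%. In AGS, H19 had 645 counts in control and 590 with estradiol, where the library total was larger, and in HGC-27 it had 155 and 176, where the total was smaller. PVT1, HOTAIR and DANCR had intervals that span 0 in both lines, and HOTAIR in AGS, at 19 and 16 counts, had the widest, from -1.39 to 0.70.

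**Figure D3:**
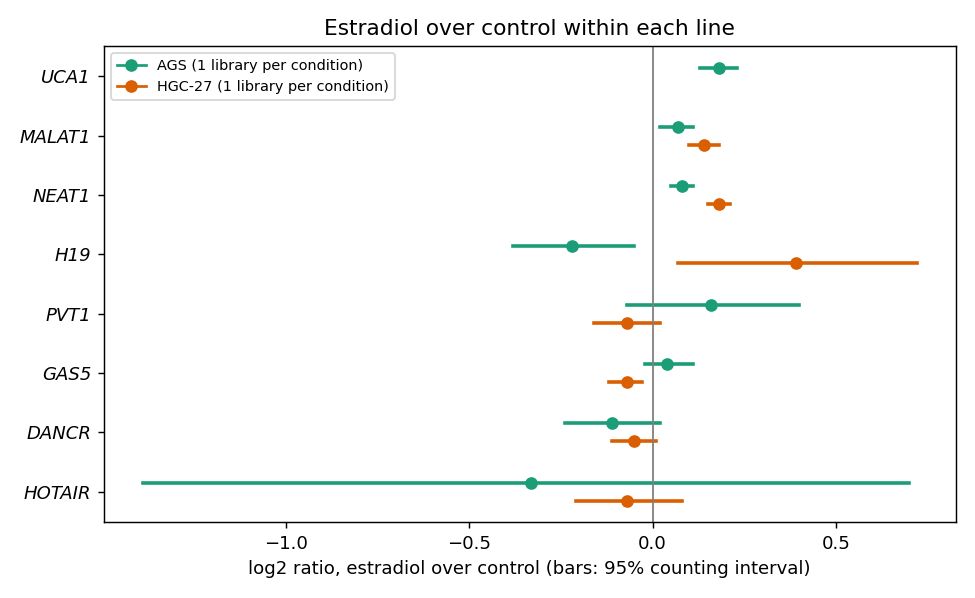
Ratio of estradiol over control (log2) for each long noncoding RNA in AGS and in HGC-27, with 1 library per condition and bars for the 95% counting interval. NEAT1 and MALAT1 lie above 0 in both lines, H19 lies below 0 in AGS at -0.22 and above 0 in HGC-27 at 0.39, and UCA1 has a ratio in AGS alone.

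Lists of related genes place the members among their kind. No gene of any of the 8 related lists was called for estradiol. Of 51 tested genes of a wider list of cancer-linked long noncoding RNAs, 17 were higher in AGS, 22 were higher in HGC-27 and 12 did not pass, with a median of -0.40 (log2, AGS minus HGC-27). MIR31HG, a microRNA host RNA, had 84 and 71 counts in the AGS libraries and 0 in those of HGC-27, and LINC00511 had 727 and 715 against 4 and 2. HOTTIP, the RNA at the distal end of the HOXA cluster, had 0 in AGS and 2697 and 2320 in HGC-27, and FENDRR, a developmental regulator near a forkhead gene, had 0 against 2592 and 2087. Of the 315 tested long noncoding genes at 0 in both AGS libraries, HOTTIP ranked 2 and FENDRR 3 by level in HGC-27. All 315 were tested through their HGC-27 counts alone. Of 10 tested RNAs of the HOX clusters in this list, 8 were higher in HGC-27, 1 was higher in AGS and 1 did not pass. HOXA11-AS had 0 in AGS and 243 and 211 in HGC-27, HOXB-AS3 was higher in AGS with 489 and 580 counts against 97 and 100 (2.44 ± 0.15), and HOXC-AS1, from the cluster of HOTAIR, did not pass (-0.46 ± 0.37, adjusted p = 0.244). This grouping was made after the values were seen, and the shares over all tested long noncoding genes are its background too.

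Of 22 tested snoRNA host RNAs, 16 were higher in HGC-27 like GAS5 and DANCR, 5 were higher in AGS and 1 did not pass. Their median of -0.69 stands beside -0.56 over all tested long noncoding genes, of which 42.2% were higher in HGC-27 and 21.1% in AGS. By position, 22 of these 22 hold a snoRNA row on their own strand in the deposited table, DANCR holds 1 and GAS5 holds 0. The 0 of GAS5 describes the rows of that table and does not show that its introns lack snoRNAs. SNHG16 had 1077 and 1122 counts in the AGS libraries and 3245 and 2804 in those of HGC-27 (-1.45 ± 0.07), and TMEM161B-AS1 differed by -1.60 ± 0.16. SNHG18 and SNHG17 differed the other way, by 1.60 ± 0.16 and 1.18 ± 0.09. DANCR at -2.09 lay beyond every listed host with a mean of at least 1 CPM, and GAS5 at -0.95 lay inside their range. The 15 tested nonsense-mediated decay factors, which degrade many host RNAs, had a median of 0.19 with 9 higher in AGS, 4 higher in HGC-27 and 2 that did not pass. SMG9 had the highest difference among the decay factors, with 2389 and 2630 counts in the AGS libraries and 697 and 564 in those of HGC-27. UPF3A was also higher in AGS (1.27 ± 0.06), and its paralog UPF3B (-0.59 ± 0.07) and the exon junction gene CASC3 (-0.51 ± 0.06) were higher in HGC-27.

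**Figure D4:**
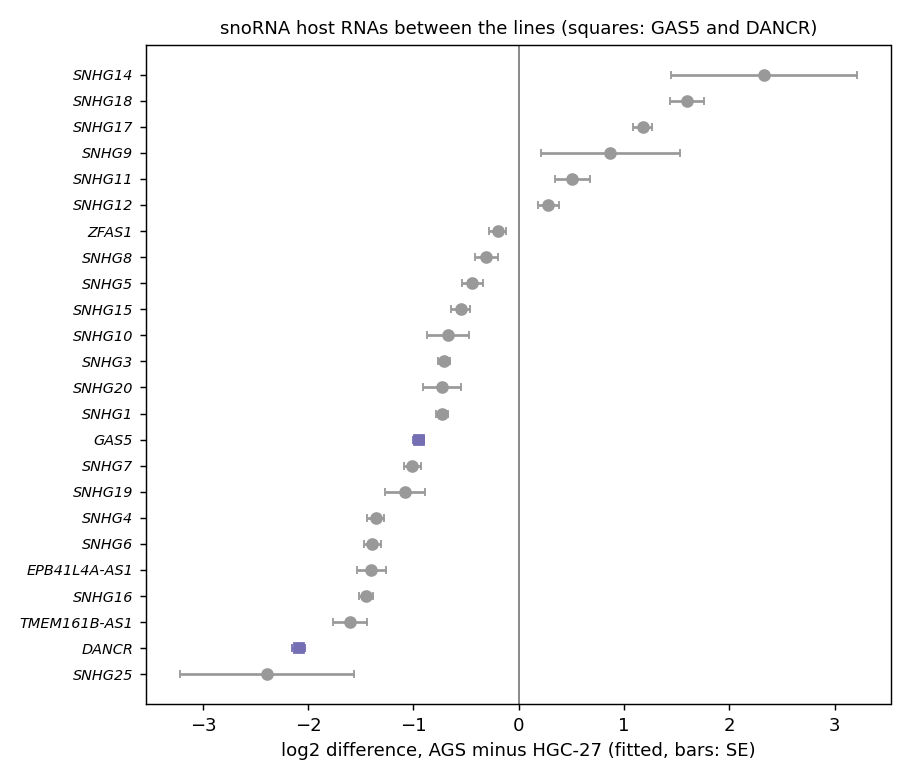
Fitted line difference (log2, AGS minus HGC-27, bars SE) of the 22 tested snoRNA host RNAs (circles) with GAS5 and DANCR (squares). Of the 22 hosts, 16 were called higher in HGC-27, and SNHG17 and SNHG18 lie on the AGS side at 1.18 and 1.60.

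The protein partners of the nuclear RNAs were divided. The background for their counts is 35.7% higher in AGS and 41.5% higher in HGC-27 over all tested genes. Of 28 rows of paraspeckle proteins, which assemble on NEAT1, 13 were higher in AGS, 11 were higher in HGC-27 and 4 did not pass, with a median of 0.05. PSPC1 was higher in AGS (3390 and 3535 counts against 1187 and 939, 1.72 ± 0.07), as was HNRNPUL1 (1.43 ± 0.05). A row of MATR3, a nuclear matrix protein gene with 2 rows, was higher in HGC-27 (-1.17 ± 0.18). NONO, which binds NEAT1 together with PSPC1, was higher in HGC-27, with 11563 and 12480 counts in the AGS libraries and 30671 and 26045 in those of HGC-27 (-1.23 ± 0.05). NEAT1 itself passed in neither direction. Of 16 nuclear speckle proteins, the neighbours of MALAT1, 10 were higher in AGS, 2 were higher in HGC-27 and 4 did not pass, with a median of 0.30. SRRM1 stood at 0.89 ± 0.05 and the splicing factor U2AF2 at 0.71 ± 0.05, and the splicing factors SRSF7 and SRSF1 stood at -0.33 ± 0.05 and -0.13 ± 0.05.

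Chromatin partners of HOTAIR and related RNAs were also compared, and a link of their levels to HOTAIR was not tested. Of 15 tested PRC2 subunits and other partners, 13 were higher in AGS and 2 in HGC-27, with a median of 0.29. Over all tested genes, 35.7% were higher in AGS and 41.5% in HGC-27. Some of the 13 differed little, such as RBBP4 at 0.15 ± 0.05 and MTF2 at 0.19 ± 0.07. EED, a core PRC2 subunit, stood at 0.85 ± 0.09 and JARID2, an accessory subunit, at 0.66 ± 0.07. PHF19, another accessory subunit, had 25 and 38 counts in the AGS libraries and 1359 and 1135 in those of HGC-27 (-5.29 ± 0.15), and HNRNPU, a nuclear RNA-binding protein gene, stood at -0.16 ± 0.05. Of 14 tested imprinted genes, the class of H19 and MEG3, 5 were higher in AGS and 9 in HGC-27, with a median of -0.90. MEST had 4329 and 4474 counts in the AGS libraries and 6 and 0 in those of HGC-27, and GNAS had 24057 and 26573 against 30 and 23. PEG10, a gene of retrotransposon origin, had 0 and 1 counts in the AGS libraries and 12869 and 10971 in those of HGC-27, and ZDBF2 had 1 and 0 against 585 and 644.

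The long noncoding genes nearest to 3 members in level were found by distance in log2 CPM over the 4 libraries. This distance weighs the level itself, so a near gene need not differ between the lines as the member does. Nearest to GAS5 were SNHG1, at a distance of 0.915, and OIP5-AS1, at 0.976. Nearest to DANCR were SNHG16, at 0.723, and SNHG3, at 1.38. Nearest to MALAT1 was TUG1, at 0.628, whose level was 266, 264, 266 and 263 CPM in AGS control, AGS estradiol, HGC-27 control and HGC-27 estradiol.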

How the data were processed

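The authors deposited 1 table of raw counts per gene for the 4 libraries. Reads were aligned with HISAT2 and counted with featureCounts, per the submitters' processing notes. Versions, strand handling, poly(A) selection and the treatment of reads that match several places are not given in the sources used here. Those notes name hg18, but the table's positions are those of GRCh38: of 58336 gene IDs, 58216 are in GENCODE 29 and 57464 of these have its start and end, the 9 members included. No member shares more than 12.6% of its 31-base stretches with another gene.

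The counts were fitted with edgeR 4.0.16 in R 4.3.3 (TMM, filterByExpr, quasi-likelihood test, Benjamini-Hochberg adjustment over all 18278 tested genes, threshold 0.05) in a model of line plus treatment with 1 residual degree of freedom. The fit had 396.9 prior degrees of freedom, so the spread behind a p-value was almost wholly pooled over genes. DESeq2 1.42.0 and limma 3.58.1 (voom) were alternatives. The library number marks the cell line, so libraries were paired by line. The deviations of the AGS libraries from their group means had r = 0.986. With 1 library of each line per group these deviations carry the line difference, so r cannot show a pairing of cultures. CPM use TMM-scaled library sizes, and within-line ratios a prior of 0.5 counts. Since reads carry no molecular identifiers, they are not independent molecules, and intervals and floors cover counting error only. The code was tested on simulated counts.

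Neighbours are the 2 nearest protein-coding genes on each side within 500 kb and all overlapping genes, of which some are not reported here. From each related list the 2 highest and 2 lowest line differences at a mean CPM of at least 1 are named, and the genes nearest in level are given for 3 members. CASC19, which is in the wider list, is named for its place. The members and lists were chosen with earlier results of these data known. No motif window was used for UCA1, PVT1, NEAT1 or HOTAIR.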

Additional observations from a re-analysis of the deposited data

Results flagged for a closer look

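H19 had a ratio of estradiol over control of -0.22 (log2, interval -0.38 to -0.05) in AGS and of 0.39 (0.07 to 0.72) in HGC-27, so the lines lay on opposite sides of 0. With 1 library per condition in each line the difference between the lines was not tested, and 4.86% of genes measured in both lines had such opposite intervals.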

How the results depend on the processing

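No alternative called a member for estradiol. Over all genes, 28 were called (21 higher, 7 lower), against 1 with DESeq2 (1 higher, 0 lower, 145 at an unadjusted p under 0.05), 2 when genes of shared sequence were left out (2 higher, 0 lower, 469), 0 with limma-voom (0 higher, 0 lower, 490) and 0 with no replicate block (0 higher, 0 lower, 2). The estradiol sign of PVT1, near 0, turned to -0.03 with voom, -0.0022 with no filter on low counts and -0.04 with no replicate block, and that of H19 to -0.08, -0.0015 and -0.09. Without replicate 2 (HGC-27), HOTAIR stood at -0.33. Between the lines, the calls of UCA1, PVT1, MALAT1, H19, HOTAIR, GAS5 and DANCR held under all 10 alternatives, MALAT1 between -0.35 and -0.20. The NEAT1 line difference ranged from -0.08 to 0.11, at -0.08 without control replicate 2, -0.03 without estradiol replicate 1 and 0.11 without estradiol replicate 2. Fits that left out 1 library had no treatment term, so treatment was not balanced between the lines in them. The size of the adjusted p between the lines depended on the tool, and within edgeR on the scaling and the genes fitted. For UCA1 it was 0.00038 with DESeq2, and for HOTAIR it was 3.28e-05 with limma-voom. With edgeR and RLE in place of TMM scaling it was 5.97e-76 for UCA1 and 3.11e-44 for HOTAIR. With edgeR and genes of shared sequence left out it was 1.56e-23 and 3.88e-17. The fitted differences hardly moved, at 15.58 and 15.57 for UCA1 and -5.48 and -5.49 for HOTAIR in these edgeR fits. The cause of these changes was not tested. Low counts limit UCA1 in HGC-27 and MEG3, which are at 0, and HOTAIR in AGS.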
